A study of Mus musculus with 8 samples.

Results

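The 10 genes described here are subunits of the respiratory chain that are encoded on mitochondrial DNA (mtDNA) and had a probe set of their own on the array. They were taken by name from the probe-to-gene table: mt-Nd1, mt-Nd2, mt-Nd3, mt-Nd4, mt-Nd4l, mt-Nd5 and mt-Nd6 of complex I, mt-Cytb of complex III, and mt-Co1 and mt-Co3 of complex IV. They are 10 of the 22180 genes measured and 10 of the 13 protein genes of mtDNA. The other 3, mt-Co2, mt-Atp6 and mt-Atp8, are listed only on probe sets that also name other genes, so complex V has no member here. Each member had exactly 1 such probe set.

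Epidermal RNA of C57BL/6J newborns at postnatal day 0 was measured on 8 arrays, 4 per group. In the K320E-TwinkleEpi group (K320E below), a mutant of the mitochondrial helicase Twinkle was expressed through the K14 promoter, which is active in basal keratinocytes. The control group (Control below) has the genotype R26-K320E-Twinkle loxP/+, so both genotype labels name K320E-Twinkle. Nothing in the labels ties each array to its own animal or litter, so the p-values reflect the spread among these 8 arrays, part of which may be technical. All values are log2 intensities as the authors deposited them, and fold changes are K320E minus Control on that scale.

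mtDNA is a small circular genome whose strands, called heavy and light, are each transcribed as a long precursor that is then cut into single RNAs. In mice, as in other mammals, the light strand codes for mt-Nd6 alone among the proteins, and the other proteins come from the heavy-strand transcript, in which tRNAs sit between many of the coding genes. The mtDNA-encoded proteins form the membrane cores of complexes I, III, IV and V, to which subunits made from nuclear genes are added, while complex II is wholly nuclear-encoded. Twinkle unwinds mtDNA at the replication fork, and mtDNA is the only template for these transcripts.

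Some facts of the arrays bear on all results. Twnk, which encodes Twinkle, rose to 9.05 ± 0.18 in K320E, against 6.73 ± 0.18 in Control (SD, n = 4 each; log2 fold change 2.31, SE 0.11, limma adjusted p = 0.00011), and it did not overlap between the groups. The 7 measured keratinocyte markers, of which Krt10 and Krt1 were the highest, averaged 11.85 to 11.98 in K320E and 11.82 to 11.94 in Control. Hair follicle markers, 5 genes led by Tchh and Krt25, averaged 8.06 to 8.70 in K320E and 8.76 to 10.27 in Control, with no overlap of the groups. Of the other marker lists, skeletal muscle (8 genes, led by Tnnt3 and Mylpf) averaged 6.92 to 7.997 in K320E and 6.42 to 7.20 in Control, and adipocytes and brown fat (7 genes, led by Fabp4 and Cidea) 6.49 to 7.42 in K320E and 6.42 to 6.75 in Control. Melanocytes (5 genes, led by Mlana and Dct) averaged 8.63 to 9.04 in K320E and 8.92 to 9.47 in Control, with all 5 fold changes negative. Sebocytes (6, Plin2 and Elovl3) averaged 6.18 to 6.44 in K320E and 6.33 to 7.25 in Control, with 5 of 6 negative. Fibroblasts (6, Dcn and Col1a2) averaged 7.40 to 8.01 in K320E and 7.18 to 7.85 in Control. For leukocytes (5, Ptprc and Lyz2) the averages were 6.49 to 6.63 in K320E and 6.58 to 6.88 in Control. All lists but hair follicle overlapped between the groups, and 0 single markers of any list passed limma's test. Their part in the results below was not tested. Sex-linked transcripts differed within both groups. K320E replicate 3 had a Y-linked mean of 8.64 and Xist at 6.84, while the other 3 K320E arrays had Y-linked means of 4.75 to 4.82 and Xist at 12.07 to 12.15. Control replicates 1 and 4 had Y-linked means of 4.82 and 4.80 and Xist at 12.26 and 12.27. Control replicate 2 had a high Y-linked mean (9.05) beside an intermediate Xist (9.27), and Control replicate 3 was low in both (4.75 and 6.17), so the main values are also given without these 2 Control arrays.

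Transcripts of all 3 complexes were lower in K320E. Of the 10 members, 9 fell (limma adjusted p under 0.05 over all genes), where 0.194% of all genes were called lower. For all 10 the highest K320E array lay below the lowest Control array, which held for 3.75% of all genes. Their median log2 fold change was -0.48, against -0.00052 for all genes, and the single values ran from -1.04 to -0.33. In such bulk samples, fewer cells of a type and less RNA per cell cannot be told apart. Without Control replicates 2 and 3 the median was -0.47, and 4 members passed: mt-Nd2, mt-Nd3, mt-Co3 and mt-Cytb. Called members numbered 6 to 8 when each array was left out in turn.

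**Figure D1:**
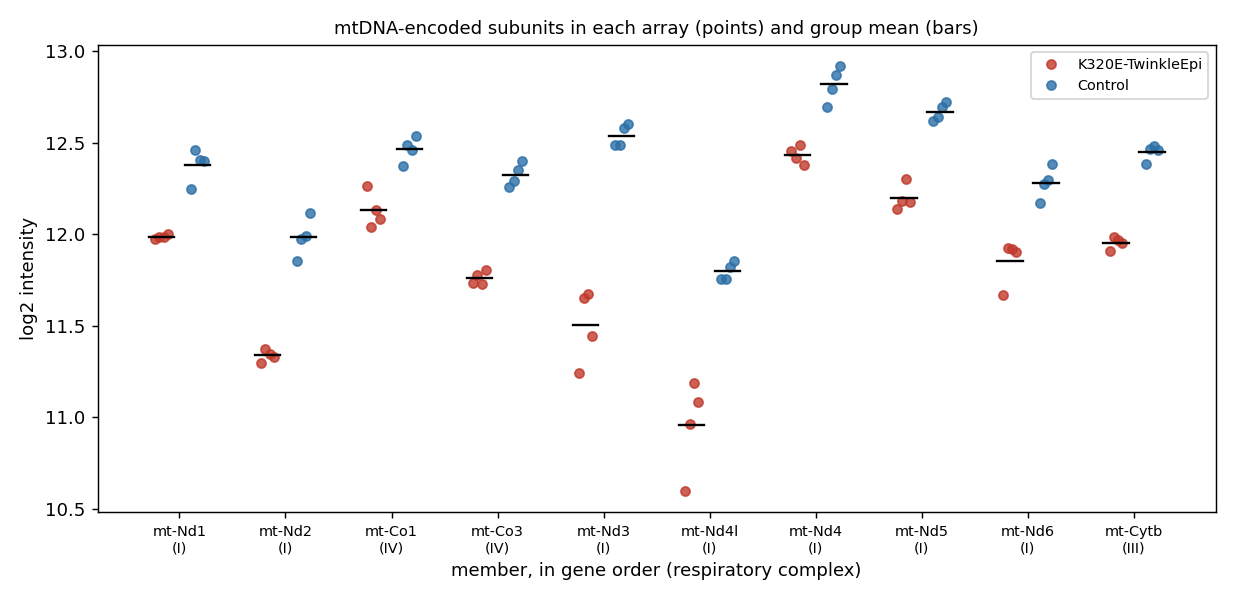
Log2 intensity (vertical axis) of each mtDNA-encoded subunit in the 4 K320E-TwinkleEpi arrays (left of each pair) and the 4 Control arrays (right), in gene order, with the respiratory complex in brackets; points are arrays and bars are group means. In all 10 members every K320E array lies below every Control array, with the widest gap, 0.81, in mt-Nd3.

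Complex I takes electrons from NADH and pumps protons, and all 7 of its measured mtDNA-encoded subunits fell, with log2 fold changes of -1.04 to -0.39 (median -0.47). mt-Nd3, a small core subunit of the membrane arm, had 11.24, 11.65, 11.67 and 11.45 in K320E replicates 1 to 4, against 12.49, 12.49, 12.58 and 12.60 in Control. The K320E arrays were spread over 0.43 and the Control arrays over 0.12, with a gap between the groups of 0.81. The fold change was -1.04 (SE 0.10, limma adjusted p = 0.0037), which puts K320E at 48.8% of the Control level (95% interval 42.0 to 56.7%).

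mt-Nd4l, another small membrane subunit, had 10.60, 10.96, 11.19 and 11.08 in K320E, against 11.76, 11.76, 11.82 and 11.85 in Control. It had the largest spread of the members in K320E (SD 0.26), with replicate 1 the lowest, and the groups were still 0.57 apart. It fell by 0.84 (SE 0.11, limma adjusted p = 0.014), to 55.9% of the Control level (95% interval 46.7 to 66.9%). Without Control replicates 2 and 3 its adjusted p was 0.075. The probe set of mt-Nd4l (17221871) has a number that lies between those of Col19a1 and Adgrb3 on chromosome 1, and not in the run that holds the other 9 members. Its neighbour 17221873 is annotated with ATP6, ATP8 and Gm10925, a pseudogene on chromosome 1. Whether the mt-Nd4l probe set also reads a nuclear copy of mtDNA was not tested.

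mt-Nd2, mt-Nd4 and mt-Nd5 are the antiporter-like subunits that form the proton channels of complex I. mt-Nd2 had 11.30, 11.38, 11.35 and 11.33 in K320E, against 11.85, 11.97, 11.99 and 12.11 in Control. The 4 K320E arrays lay within 0.08 of each other and 0.48 below the lowest Control, and mt-Nd2 fell by 0.64 (SE 0.06, limma adjusted p = 0.0043), to 64.0% of Control. mt-Nd5 had 12.14, 12.18, 12.30 and 12.17 in K320E, against 12.62, 12.64, 12.69 and 12.72 in Control. K320E replicate 3 was the highest of its group and still 0.31 below the lowest Control, and mt-Nd5 fell by 0.47 (SE 0.06, limma adjusted p = 0.00996). Without Control replicates 2 and 3 its adjusted p was 0.053. mt-Nd4 had 12.45, 12.42, 12.49 and 12.38 in K320E, against 12.70, 12.79, 12.87 and 12.92 in Control. These log2 intensities lay near the top of the array's range, where the maximum over all probe sets was 13.13. The groups were 0.21 apart, and mt-Nd4 fell by 0.39 (SE 0.06, limma adjusted p = 0.030). It passed in 1 of the 8 fits that left out an array, with adjusted p up to 0.092, and it had an adjusted p of 0.114 without Control replicates 2 and 3.

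mt-Nd1 lies where the membrane arm meets the matrix arm and lines the quinone-binding site. It had 11.98, 11.98, 11.99 and 12.002 in K320E, against 12.25, 12.46, 12.41 and 12.40 in Control. The K320E arrays had an SD of 0.011, the smallest of any member, and Control replicate 1 was the lowest of its group. mt-Nd1 fell by 0.39 (SE 0.06, limma adjusted p = 0.021). It passed in 1 of the 8 reduced fits, with adjusted p up to 0.079, and it had an adjusted p of 0.0998 without Control replicates 2 and 3.

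mt-Nd6, the member encoded on the light strand, had 11.67, 11.92, 11.92 and 11.90 in K320E, against 12.17, 12.28, 12.29 and 12.38 in Control. K320E replicate 1 stood below the other 3 K320E arrays, which lay within 0.02 of each other, and the groups were 0.25 apart. mt-Nd6 fell by 0.43 (SE 0.08, limma adjusted p = 0.041), to 74.4% of Control (95% interval 66.1 to 83.7%). It passed in 0 of the 8 reduced fits, in which its fold change ran from -0.46 to -0.37 and its adjusted p from 0.059 to 0.101, and it had an adjusted p of 0.138 without Control replicates 2 and 3.

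mt-Cytb encodes cytochrome b, the haem-bearing core of complex III and its only mtDNA-encoded subunit. It had 11.91, 11.99, 11.97 and 11.95 in K320E, against 12.38, 12.46, 12.48 and 12.46 in Control. Both groups were tight (SD 0.03 in K320E and 0.04 in Control) and 0.40 apart. mt-Cytb fell by 0.49 (SE 0.05, limma adjusted p = 0.0046), to 71.0% of Control (95% interval 65.6 to 76.8%), and it passed in all 8 reduced fits.

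Complex IV, cytochrome c oxidase, passes electrons to oxygen. mt-Co3, a core subunit without a redox centre, had 11.73, 11.78, 11.73 and 11.81 in K320E, against 12.26, 12.29, 12.35 and 12.40 in Control. It fell by 0.56 (SE 0.05, limma adjusted p = 0.0037), to 67.7% of Control, and it passed in all 8 reduced fits. mt-Co1, the catalytic subunit that holds haem and copper, had 12.27, 12.04, 12.13 and 12.09 in K320E, against 12.37, 12.49, 12.46 and 12.54 in Control. K320E replicate 1 was the highest of its group and 0.11 below the lowest Control, the smallest gap of any member. The log2 fold change was -0.33 (95% interval -0.48 to -0.19) with a limma adjusted p of 0.059, so mt-Co1 is the 1 member that did not pass. Without K320E replicate 1 its adjusted p was 0.049 (log2 fold change -0.38), and over all 8 reduced fits it ran from 0.049 to 0.163.

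Certain arrays were the lowest or the highest of their group for most members. Within K320E, replicate 1 was the lowest array for 7 of the 10 members and the highest for mt-Co1. Within Control, replicate 1 was the lowest for all 10 members and replicate 4 the highest for 8. Averaged over the members, the K320E arrays had a level of 11.73 (replicate 1) to 11.87 (replicate 3), and the Control arrays 12.28 (replicate 1) to 12.44 (replicate 4).

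The size of the decrease was compared between members through the difference of their log2 intensities within each array, for all 45 pairs. In 26 pairs the K320E and Control differences did not overlap, and each had an exact two-sided permutation p of 0.0286, the smallest that 4 against 4 arrays allow, or 0.0495 adjusted over the 45 pairs (Benjamini-Hochberg). These 26 pairs share the same adjusted value, just under the threshold of 0.05, so they pass or fail together. The pairs also share members and arrays and are not independent of each other. mt-Nd3 fell more than each of the other 9 members. mt-Nd4l fell more than 6 others, namely mt-Nd1, mt-Co1, mt-Nd4, mt-Nd5, mt-Nd6 and mt-Cytb, and mt-Nd2 also fell more than 6. mt-Nd3 minus mt-Co1 was -0.63 ± 0.28 in K320E and 0.08 ± 0.05 in Control (SD, n = 4 each), a difference of -0.70. mt-Nd3 minus mt-Nd4l, its nearest protein gene downstream, was 0.55 ± 0.15 in K320E and 0.74 ± 0.01 in Control, a difference of -0.20. Without Control replicates 2 and 3, 4 against 2 arrays cannot give an exact p below 0.133, and all 26 differences kept their sign. Those of mt-Nd3 from the other members then ran from -0.71 to -0.19. The other 19 pairs did not pass. Among these, mt-Nd1 and mt-Nd4 had a difference of -0.01 (exact permutation p = 0.914) and mt-Nd6 and mt-Nd1 one of -0.04 (exact permutation p = 0.714). A probe set near the top of the array's range can show less than the full change. The members' log2 fold changes had a Spearman correlation of 0.42 with their Control level over the 10 members, which share the same arrays. How far the upper end of the range moved the fold changes was not tested.

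By complex, the decreases overlapped. The median log2 fold change was -0.47 for the 7 complex I members, -0.49 for mt-Cytb and -0.45 for the 2 complex IV members. The complex I mean minus the complex IV mean of the same array was -0.19 ± 0.13 in K320E and -0.04 ± 0.01 in Control (SD, n = 4 each), a difference of -0.15 (SE 0.06) with no overlap. Without K320E replicate 1 this difference was -0.09, and without Control replicates 2 and 3 it was -0.15. The complex I mean minus mt-Cytb was -0.20 ± 0.06 in K320E and -0.10 ± 0.04 in Control, a difference of -0.11 (SE 0.04). These groups narrowly did not overlap, with K320E replicate 3 at -0.1255 and Control replicate 2 at -0.1239. For the complex IV mean minus mt-Cytb the difference was 0.05 (SE 0.04), and the groups overlapped. The complex I mean carries mt-Nd3 and mt-Nd4l. Their mean minus that of the other 5 complex I members was -0.73 ± 0.18 in K320E and -0.26 ± 0.05 in Control, a difference of -0.47 (SE 0.09). As mt-Nd3 and mt-Nd4l have the lowest fold changes of the members, this difference was bound to be negative and carries no test. Taking the median over members in place of the mean, the difference between complexes I and IV was -0.08, and without mt-Nd4l, chosen after seeing the data, it was -0.11.

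By strand, mt-Nd6 was set against the mean of the 9 heavy-strand members. The within-array difference of mt-Nd6 from them was 0.05 ± 0.08 in K320E and -0.10 ± 0.03 in Control (SD, n = 4 each), and the groups overlapped narrowly, with K320E replicate 1 at -0.0653 and Control replicate 4 at -0.0634. The difference between the groups was 0.15 (SE 0.04), 0.14 without Control replicates 2 and 3, and 0.06 against the median of the heavy-strand members. In the pairs, mt-Nd6 fell less than mt-Nd2, mt-Nd3 and mt-Nd4l, and its differences from the other 6 heavy-strand members did not pass the test.

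By gene order, the fold changes did not run in 1 direction. The order along mtDNA is mt-Nd1, mt-Nd2, mt-Co1, mt-Co3, mt-Nd3, mt-Nd4l, mt-Nd4, mt-Nd5, mt-Nd6 and mt-Cytb, with log2 fold changes of -0.39, -0.64, -0.33, -0.56, -1.04, -0.84, -0.39, -0.47, -0.43 and -0.49. The lowest values, those of mt-Nd3 and mt-Nd4l, belong to neighbouring protein genes in the middle of this order. The mt-Nd4l probe set is numbered outside the run of the other 9 members, and whether it also reads a nuclear copy of mtDNA was not tested. The Spearman correlation of the log2 fold change with gene order was -0.05 over the 9 heavy-strand members and -0.02 over all 10, which share the same arrays.

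**Figure D2:**
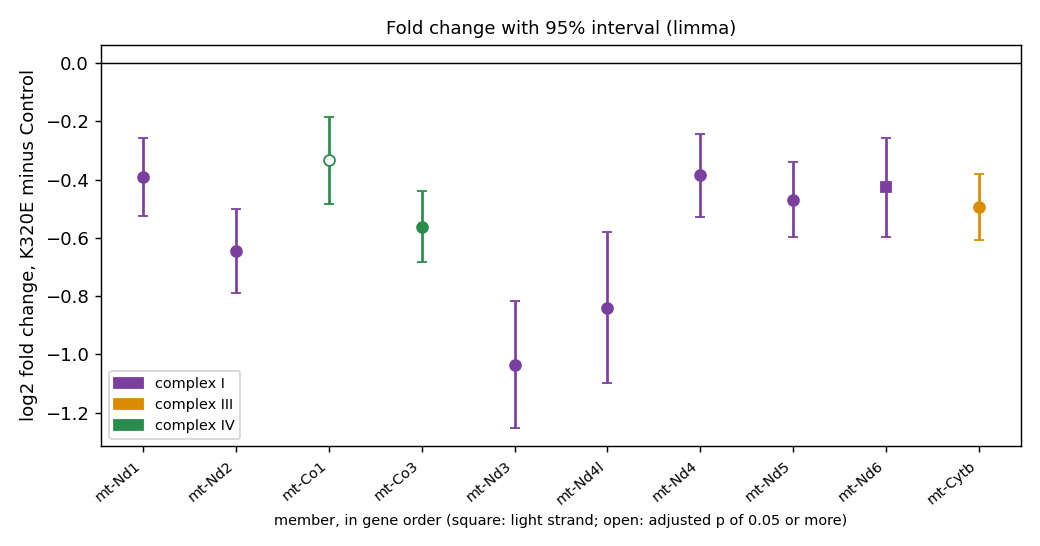
Log2 fold change, K320E minus Control (vertical axis), of each mtDNA-encoded subunit in gene order, with the 95% interval from limma as bars; colours mark the complex, the square marks the light-strand gene and the open point the member that did not pass. All 10 intervals lie below 0, with mt-Nd3 (-1.04) and mt-Nd4l (-0.84) the lowest.

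The nuclear-encoded subunits of the same complexes showed no such set of decreases. In nuclear complex I, 1 of 32 measured genes fell and 0 rose, with a median log2 fold change of -0.02. The 1 gene was Ndufs5, an accessory subunit, at 6.28 ± 0.05 in K320E and 6.57 ± 0.05 in Control (SD, n = 4 each; log2 fold change -0.29, limma adjusted p = 0.049), and it passed in 0 of the 8 reduced fits. In nuclear complex III (8 genes, median 0.03) and complex IV (10 genes, median -0.03), and in complex II (4 genes, median 0.12), 0 genes passed. Their largest fold changes were those of Uqcrc1, a core subunit of complex III (0.40, limma adjusted p = 0.149), Cox7b, a small subunit of complex IV (-0.46, adjusted p = 0.274), and Sdha, the flavoprotein of complex II (0.16, adjusted p = 0.534). Over all genes, 0.879% were called in either direction.

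**Figure D3:**
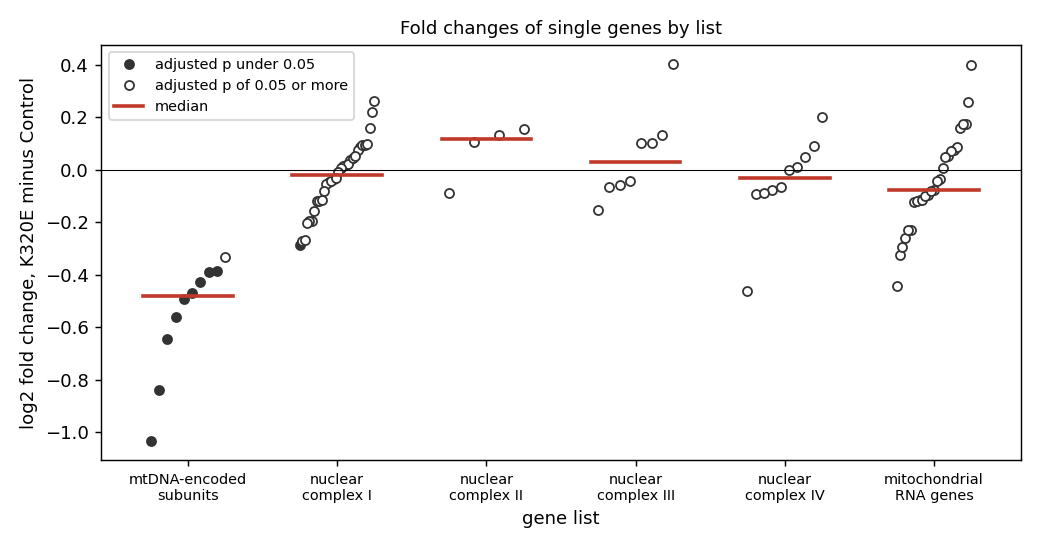
Log2 fold change, K320E minus Control (vertical axis), of each gene in 6 lists; filled points have a limma adjusted p under 0.05, open points do not, and red bars are list medians. The members have a median of -0.48, while the medians of the 5 nuclear-encoded lists lie between -0.08 and 0.12.

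Set against the nuclear-encoded mean of the same complex in the same array, the mtDNA-encoded side was lower in K320E in each of complexes I, III and IV. For complex I this within-array difference was 2.86, 2.94, 3.03 and 2.87 in K320E, against 3.45, 3.42, 3.56 and 3.56 in Control, a change of -0.57 (SE 0.05). For complex III, mt-Cytb minus the nuclear-encoded mean was 2.81, 2.92, 2.92 and 2.90 in K320E, against 3.43, 3.37, 3.45 and 3.49 in Control, a change of -0.55 (SE 0.04). For complex IV it was 1.51, 1.35, 1.46 and 1.37 in K320E, against 1.79, 1.74, 1.81 and 1.96 in Control, a change of -0.40 (SE 0.06). The groups did not overlap in any of the 3 complexes. Without Control replicates 2 and 3 the changes were -0.58 for complex I, -0.57 for complex III and -0.45 for complex IV. The nuclear-encoded means alone did overlap. For complex I they were 8.83 ± 0.05 in K320E and 8.86 ± 0.05 in Control, for complex III 9.07 ± 0.02 in K320E and 9.01 ± 0.06 in Control, and for complex IV 10.53 ± 0.05 in K320E and 10.57 ± 0.06 in Control (SD, n = 4 each). The levels of the 3 complexes come from different probe sets and are not compared with each other.

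**Figure D4:**
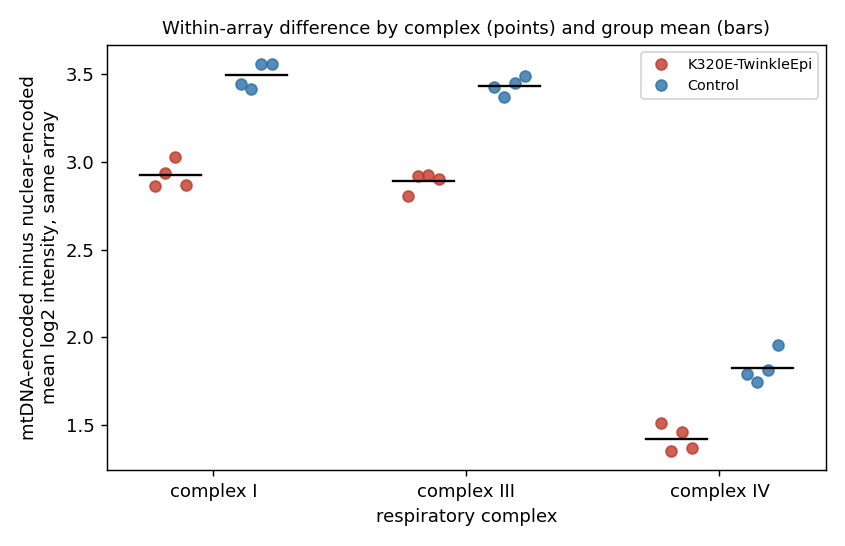
Mean log2 intensity of the mtDNA-encoded subunits minus that of the nuclear-encoded subunits in the same array (vertical axis), for complexes I, III and IV, in K320E-TwinkleEpi (left of each pair) and Control (right); points are arrays and bars are group means. Every K320E array lies below every Control array in the 3 complexes, with changes of -0.57, -0.55 and -0.40.

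The genes that transcribe mtDNA, cut its transcripts and keep them stable were also read from the fit. Of the 27 measured, which include the RNA polymerase Polrmt, the packaging and transcription factor Tfam and the mRNA-stabilising protein Lrpprc, 0 passed in either direction (median log2 fold change -0.08, lowest adjusted p 0.145). Their log2 fold changes ran from -0.44 to 0.40, and 16 of the 27 were negative. The largest in size was that of Prorp, the nuclease that cuts the 5′ ends of tRNAs out of the mitochondrial precursor. It had 8.21, 8.80, 8.57 and 8.62 in K320E, against 8.82, 8.97, 9.04 and 9.15 in Control. The groups did not overlap, but the gap was narrow, and the log2 fold change of -0.44 (SE 0.12) did not pass (limma adjusted p = 0.145). At the other end of the list, Elac2 was higher in K320E, also with a narrow gap and no overlap. Its log2 fold change of 0.40 (SE 0.13) did not pass either (limma adjusted p = 0.197).

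Outside the members, the genes whose profile over the 8 arrays was nearest to the mean of the members were Zfp866 and Zfp950, which encode zinc finger proteins, the splicing factor gene Srsf6, Cox20, which encodes an assembly factor of complex IV, and the RNA helicase gene Ddx6. Nearness is the root mean square difference between profiles that are each centred on their own mean, and it was 0.08 for Zfp866, 0.08 for Srsf6, 0.09 for Cox20, 0.10 for Ddx6 and 0.10 for Zfp950 (log2 units). Among the members themselves, the same distance from the mean of the other 9 ran from 0.05 for mt-Co3 to 0.28 for mt-Nd3. Being chosen for a profile like that of the members, these 5 genes were bound to be lower in K320E, with log2 fold changes from -0.51 to -0.40, and they carry no test here.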

How the data were processed

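The authors deposited log2 intensities for 33793 probe sets on 8 arrays, made per the labels with the Maxwell 16 LEV simplyRNA and NuGEN Applause WT-Amp Plus ST kits. How the background was corrected and the arrays normalised is not given in the sources used here. The values (4.31 to 13.1, array medians 6.06 to 6.11) were used as deposited, and the number of arrays, 4 per group, is one limit on the precision. GEO's platform annotation gave probe set names, and a GRCm38.p6 gene table current names and gene order: 23521 probe sets name 1 gene, 1814 several, and 8458 none. Each of the 22180 genes was represented by its probe set of highest mean level. Differences were fitted in limma 3.58.1 (R 4.3.3; lmFit and eBayes, genotype alone) and adjusted over all genes by Benjamini-Hochberg at a threshold of 0.05; the script was tested on simulated data. Pairs of members were compared with exact permutation tests (scipy 1.17.1).

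Members, gene lists and tests were chosen with earlier results of these data known. The text names all members, and from each nuclear list the called genes or else the largest fold change. Elac2, the highest fold change of the mitochondrial RNA list, was added after the data were seen. From each marker list the 2 highest genes are named, and also the 5 genes nearest to the members' mean, leaving out Gm, LOC and Rik names. Of the 24 rRNA and tRNA genes of mtDNA, 0 were matched to a probe set by name. The alternatives varied the scaling (quantile, median), the choice of probe set (mean of several, or each on its own), the filter (lowest 33.3% of genes removed), the fit (trended robust prior, array weights, replicate block, Y-linked level as covariate, minimum fold of 1.2), the summary over members (median), and the arrays used (one array less, or without Control replicates 2 and 3). Leaving out mt-Nd4l was added after the data were seen.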

Additional observations from a re-analysis of the deposited data

Results flagged for a closer look

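Values in 2 of the 54 sets of 4 arrays examined lay far from the other 3; chance alone gives about 1 in 20. mt-Nd6 was at 11.67 in K320E replicate 1, against 11.90 to 11.92 in the other K320E arrays. The complex IV mean minus mt-Cytb was 0.0054 in Control replicate 4, against -0.079 to -0.068 in the other Control arrays.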

How the results depend on the processing

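Every member's fold change stayed negative under all alternatives run. Against a minimum fold of 1.2, 1 member was called, mt-Nd3, and 33 genes in all, against 9 members and 195 genes in the fit reported. Without Control replicates 2 and 3 together, 4 members, 0 nuclear complex I genes and 185 genes in all were called. Same-numbered arrays shared little over all probe sets (correlations of their deviations -0.06 to 0.13), and the fit reported did not pair them. Such low correlations cannot exclude a shared litter or batch, and replicate 1 was the lowest array for most members in both groups. With the replicate block 6 members, 0 nuclear complex I genes and 114 genes in all were called. Leaving out each array in turn gave 6 to 8 called members, 0 nuclear complex I genes and 53 to 173 genes in all. The cause was not tested. mt-Co1 was called with array weights (adjusted p = 0.032) and with the trend and robust prior (0.030). mt-Nd6 was lost under quantile normalisation (0.065), the Y-linked covariate (0.068) and with every probe set tested (0.054), mt-Nd4 with the Y-linked covariate (0.054). With medians over members, complex I minus mt-Cytb was -0.0307, mt-Nd6 minus the heavy-strand members 0.0591, mt-Cytb minus nuclear complex III -0.75 and complex IV minus nuclear complex IV -0.26; under quantile normalisation mt-Cytb minus nuclear complex III was -0.48.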

Other observations

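The run of probe set numbers that holds 9 of the members, from Gm20783 to LOC100040974, also holds 20 probe sets with no gene in the annotation used here. These were singled out after their values were seen, so they carry no test, and which RNA each reads was not established. Of the 20, 19 were lower in K320E, and in 17 of these the groups did not overlap, against 3.88% of all probe sets that did not overlap and were lower in K320E. Most of them moved further than any member. Of the 20, 14 differed by more than 1 log2 unit downward and 8 by more than 2. The smallest of these 14 decreases, that of 17532651, was -1.034. For comparison, the lowest of the members, mt-Nd3, had -1.035.

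The lowest was 17532623, numbered between the probe sets of mt-Nd3 and mt-Nd4, with 6.13, 6.29, 7.58 and 7.15 in K320E, against 9.31, 9.97, 9.71 and 9.94 in Control, a difference of -2.94 or 7.69-fold lower. Next came 17532597, before mt-Nd1, with 5.37, 6.45, 6.35 and 6.21 in K320E, against 8.23, 8.81, 8.47 and 9.56 in Control, a difference of -2.67. Both lie in the lower or middle part of the array's range, where the members, at 10.60 to 12.92, do not. Other decreases lay at average levels like those of the members, without overlap of the groups. There 17532601 averaged 11.37 in K320E and 12.71 in Control, a difference of -1.34. For 17532651 the averages were 11.35 in K320E and 12.38 in Control. Some of the 20 moved little: 17532595 was at 12.64 in K320E and 12.78 in Control on average, with overlapping groups, and 17532599 at 11.95 in K320E and 12.25 in Control. In 1 the direction was the opposite: 17532653, numbered after mt-Nd6, had 9.04, 8.90, 8.94 and 8.73 in K320E, against 7.49, 8.06, 8.24 and 7.53 in Control, a difference of 1.07.

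Among the 13 unnamed probe sets numbered between mt-Nd1 and mt-Nd6, K320E replicate 1 was the lowest K320E array for 11 and replicate 3 the highest for 11. Control replicate 1 was the lowest Control array for 10. The mean of the 13 was 6.31 in K320E replicate 1 and 7.17 in K320E replicate 3, against 8.08 (replicate 1) to 8.75 (replicate 3) in the Control arrays. Of the 2 probe sets that list mtDNA-encoded subunits with other genes, 17532613 (COX2 and Prf1) had 12.18, 12.16, 12.18 and 12.16 in K320E, against 12.46, 12.56, 12.57 and 12.58 in Control. The other, 17221873 (ATP6, Gm10925 and ATP8), had 11.32, 11.14, 11.18 and 11.22 in K320E, against 11.54, 11.70, 11.77 and 11.83 in Control. In both, every K320E array lay below every Control array.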
